A study of Macaca fascicularis with 16 samples.

Results

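The luminal keratins, claudins and lineage factors are 10 genes used to recognise the luminal epithelial cells of the mammary gland: KRT8, KRT18, KRT19, KRT7, EPCAM, GATA3, FOXA1, CLDN3, CLDN4 and CLDN7. They were represented by the 16 probe sets, of 52865 on the array, to which the platform annotation gave a single symbol equal to one of these names. The tissue was mammary gland from female cynomolgus macaques that were postmenopausal and ovariectomized, the control animals included. One group received conjugated equine estrogens (CEE, 0.042 mg/kg), an oral estrogen preparation. Another received 0.042 mg/kg CEE with 0.167 mg/kg medroxyprogesterone acetate (MPA), a synthetic progestin. A further group received 0.2 mg/kg tibolone, a synthetic steroid used in hormone replacement, under a label that also carries the code OD14-HIGH. The control group was untreated. Each of the 4 groups held 4 animals with 1 Affymetrix rhesus macaque array each, and the labels give no ages and no length of treatment. The title places the study in hormone replacement therapy, and the question addressed here is how the level of each gene compared between the groups.

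Keratins of simple epithelia form filaments from 1 type I and 1 type II chain. KRT8 and KRT7 are type II chains, KRT18 and KRT19 are type I chains, and KRT8 pairs with KRT18 in luminal cells. EPCAM is an adhesion molecule of the epithelial cell surface. GATA3 is a zinc finger transcription factor that maintains the luminal fate in mice, and FOXA1 is a forkhead factor that opens chromatin for estrogen receptor alpha in human breast cancer cells. CLDN3, CLDN4 and CLDN7 are claudins, membrane proteins of the tight junction, and low levels of all 3 help to define the claudin-low class of human breast tumours. In whole tissue, a change in the number of cells of a type and a change in RNA per cell cannot be told apart, which holds for every value below.

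The deposited signals were linear intensities, scaled so that the trimmed mean of each array was 250.01 or 250.02. Between 48.6% and 51.8% of probe sets exceeded 60.2, the median of the table, on each of the 16 arrays. By the poly-A spike-in controls dap and thr the arrays fell into a low and a high set, a division found in the values and absent from the labels. The low set held control replicates 3 and 4, CEE replicates 1 and 2 and CEE+MPA replicates 1 and 4, and the high set held the other 10 arrays, all tibolone arrays among them. The log2 signal of the GAPDH 3' probe set minus that of its 5' probe set, a measure of RNA and labelling quality, was 0.002 to 0.247 in the low set and 0.525 to 0.873 in the high set except for tibolone replicate 2, at 0.105. In a model with group and set, 0 of 14 member probe sets differed between the sets by limma at an adjusted p of 0.05, against 693 of all 28716 tested. With so small a share over all probe sets, a count of 0 among 14 does not set the members apart. An unadjusted p under 0.05 was found for 2 of the 14, and the share of all probe sets with such a p was not counted. CLDN7 had the smallest p of the members, at 0.79 ± 0.24 (SE) higher on the log2 scale in the high set (adjusted p = 0.0963). Skeletal muscle markers were high on control replicate 1, CEE+MPA replicate 1 and tibolone replicates 2 and 3. Beside the calls, and beside member differences that these 4 arrays moved by over 1.5 times, the value without them is given. Without them the tibolone group held only replicates 1 and 4, so such a value also rests on fewer animals.

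Of the 16 probe sets, 14 passed the filter on low signal, which asked for more than 60.2 on at least 4 arrays, and every gene kept at least 1. Both failures were second probe sets, of KRT18 with signals of 1.34 to 23.1 and of CLDN4 with 6.19 to 58.2. KRT19 kept 3 probe sets, which followed each other at r = 0.967 to 0.982 over the 16 arrays. The pair for CLDN3 correlated at r = 0.935 and the pair for GATA3 at r = 0.664. The tested probe set with the highest mean stands for its gene below. 2 further probe sets listed KRT8 or KRT18 among several symbols and were left out. Both genes have many processed copies in primate genomes, so their signals may include RNA of near-identical sequences. In the cynomolgus RefSeq gene table (T2T-MFA8v1.1), 0 protein-coding genes lay between KRT8 and KRT18, and 1 lay between CLDN3 and CLDN4.

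All 10 genes gave signal in this tissue, which in whole tissue does not show the cells it came from. On the leading probe sets the lowest signal of any gene on any array was 372, for FOXA1 on CEE+MPA replicate 2, which is above the table median of 60.2. KRT19 stood at rank 87 and GATA3 at rank 366 among 28716 tested probe sets by mean log2 signal. These ranks compare signals of different probes and are no measure of relative transcript number. Of 34 other luminal epithelial genes listed, 26 were tested, among them MUC1 and ELF5. CDH1 had a probe set on the array that did not pass the filter, as did ESR1 among the hormone-sensing factors. The highest array exceeded the lowest by 6.66-fold for FOXA1, 3.96-fold for KRT7 and 1.86-fold for GATA3, the ends of the range over the 10 genes being FOXA1 and GATA3.

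**Figure D1:**
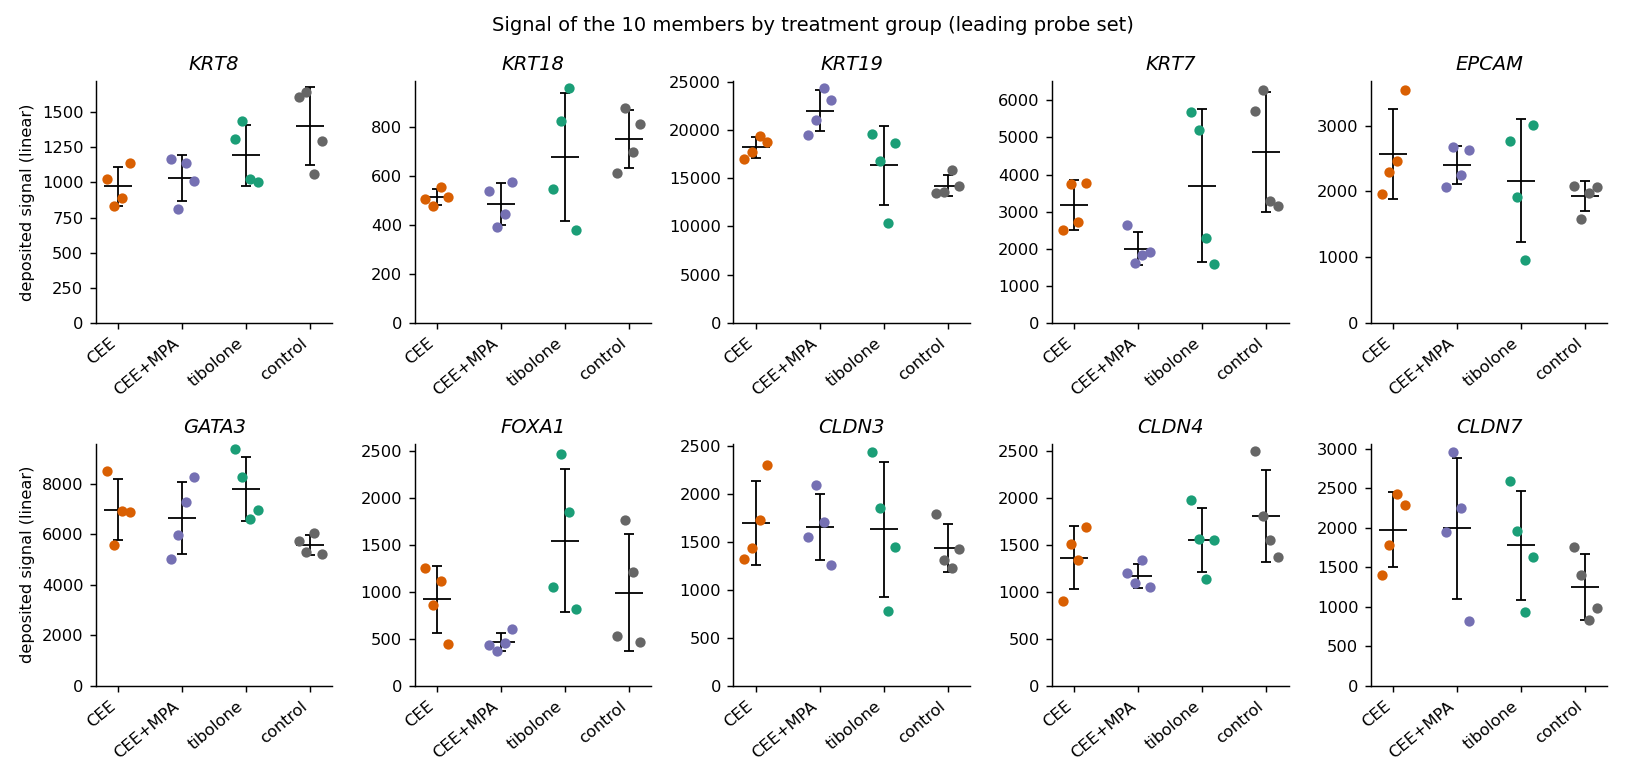
Deposited linear signal of the leading probe set of each gene on the 16 arrays, by treatment group, with bars for the mean and SD of 4 arrays. KRT19 on CEE+MPA arrays lay between 19492 and 24356, above all control arrays (13414 to 15852), and FOXA1 on CEE+MPA arrays lay between 372 and 606, below all tibolone arrays (818 to 2476).

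The keratins did not move together. KRT19 was higher with CEE+MPA than in controls, while KRT7, KRT8 and KRT18 had lower means in that group and did not pass the test. KRT19, the smallest of the type I keratins, is widely used as a marker of luminal cells.

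For KRT19, the CEE arrays read 16964, 17726, 19402 and 18759, and the CEE+MPA arrays 19492, 21034, 24356 and 23120. The tibolone arrays read 19569, 16737, 10401 and 18593, and the control arrays 13414, 13527, 15852 and 14154. All CEE+MPA arrays and all CEE arrays lay above all control arrays, and the tibolone group spread below and above the controls. KRT19 averaged 22000 ± 2162 with CEE+MPA and 14237 ± 1125 in controls (SD, n = 4 each). It rose with CEE+MPA on all 3 probe sets, by 0.63 ± 0.17 on the log2(signal + 16) scale on the leading one (1.54-fold, 95% confidence interval 0.27 to 0.99, limma adjusted p = 0.0409). The other KRT19 probe sets rose by 0.74 ± 0.20 (adjusted p = 0.0369) and by 0.81 ± 0.22 (adjusted p = 0.0414). In this comparison 3 of 14 member probe sets were called higher and 0 lower, and 7 had an unadjusted p under 0.05. Over all tested probe sets 6.33% were called in either direction, 1.95% higher and 4.38% lower, and 24.0% had an unadjusted p under 0.05. The 3 calls belong to 1 gene and are not independent.

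The KRT19 call was close to the threshold. It ended on the leading probe set when any one of the 8 arrays was left out (0.57 to 0.68 on the log2 scale, adjusted p = 0.0520 to 0.120), and after quantile normalization the difference was 0.24 (adjusted p = 0.284). Within the low spike-in set it was 0.50 (adjusted p = 0.558), within the high set 0.75 (adjusted p = 0.0997), and with set as a model term 0.63 (adjusted p = 0.0394). Without the 4 arrays high in skeletal muscle markers it was 0.65 (adjusted p = 0.0306).

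With CEE alone, KRT19 averaged 18213 ± 1082, against 14237 ± 1125 in controls (SD, n = 4 each). The difference was 0.36 ± 0.17 and did not pass the test (adjusted p = 0.408), although the groups did not overlap on any of the 3 probe sets. CEE+MPA and CEE arrays did not overlap for KRT19 either, at 0.27 ± 0.17 (adjusted p = 0.736, 95% confidence interval -0.09 to 0.63). Tibolone against CEE+MPA gave -0.47 ± 0.17 on the leading probe set (adjusted p = 0.105), and -0.60 and -0.68 on the others (adjusted p = 0.0746 and 0.0757), where the groups did not overlap. On the leading probe set it was -0.26 without tibolone replicate 3 (adjusted p = 0.259), -0.26 without the 4 arrays high in skeletal muscle markers (adjusted p = 0.614) and -0.20 after quantile normalization (adjusted p = 0.382).

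KRT7, a type II keratin of ducts and glands, read 2501, 3747, 2723 and 3784 on CEE arrays and 2635, 1608, 1843 and 1925 on CEE+MPA arrays. It read 5698, 5214, 2296 and 1588 on tibolone arrays and 5720, 6285, 3279 and 3166 on control arrays. All CEE+MPA arrays lay below all control arrays, and both the tibolone and the control group held a high pair and a low pair. KRT7 averaged 2003 ± 443 with CEE+MPA and 4613 ± 1622 in controls (SD, n = 4 each). The difference of -1.15 ± 0.36 was the largest of the members against control in size, and it missed the threshold (adjusted p = 0.0645, unadjusted p = 0.00546). It passed with a stricter filter on low signal (adjusted p = 0.0461), with array weights (0.0215) and in a model of only these groups (0.0363). It was -0.51 within the low spike-in set (adjusted p = 0.777), -1.79 within the high set (0.0570) and -0.27 with the mean of basal and myoepithelial markers as a covariate (0.786). Without the 4 arrays high in skeletal muscle markers it was -1.17 (adjusted p = 0.127).

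KRT18 read 506, 479, 555 and 515 on CEE arrays and 538, 390, 443 and 577 on CEE+MPA arrays. It read 548, 824, 958 and 380 on tibolone arrays and 610, 878, 699 and 811 on control arrays. The CEE and the CEE+MPA arrays all lay below the lowest control, whereas the tibolone arrays held both the lowest and the highest signal of the table for this gene. Neither difference passed, at -0.52 ± 0.23 for CEE against control (adjusted p = 0.375) and -0.61 ± 0.23 for CEE+MPA against control (adjusted p = 0.119).

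KRT8, the partner of KRT18, read 1027, 831, 892 and 1139 on CEE arrays and 1167, 809, 1135 and 1006 on CEE+MPA arrays. It read 1308, 1437, 1022 and 1001 on tibolone arrays and 1608, 1641, 1061 and 1291 on control arrays. Control replicate 3 lay among the treated arrays, so no group stood apart from the controls. CEE against control gave -0.51 ± 0.18 (adjusted p = 0.280) and CEE+MPA against control -0.43 ± 0.18 (adjusted p = 0.155). The CEE+MPA difference was -0.11 within the low spike-in set (adjusted p = 0.913), -0.75 within the high set (0.0810) and -0.23 with the basal and myoepithelial covariate (0.676).

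Among the transcription factors, FOXA1 was higher with tibolone than with CEE+MPA and GATA3 did not pass in any comparison. FOXA1 read 1251, 865, 1120 and 448 on CEE arrays and 438, 372, 453 and 606 on CEE+MPA arrays. It read 1051, 2476, 1851 and 818 on tibolone arrays and 529, 1773, 1214 and 462 on control arrays. The CEE+MPA group was low with a narrow range, and the other groups spread more widely. The tibolone arrays all lay above the highest CEE+MPA array, and they overlapped with the control and CEE arrays.

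FOXA1 averaged 1549 ± 760 with tibolone and 467 ± 98.8 with CEE+MPA (SD, n = 4 each). It was higher with tibolone than with CEE+MPA by 1.58 ± 0.43 on the log2 scale (3.0-fold, 95% confidence interval 0.67 to 2.50, limma adjusted p = 0.0428). This was 1 of 14 member probe sets called, with 4 at an unadjusted p under 0.05, where 6.34% of all tested probe sets were called and 25.1% had an unadjusted p under 0.05. The probe set carries a suffix that Affymetrix gives to probes matching more than 1 transcript, as does the leading probe set of KRT19. CEE+MPA against control gave -0.87 ± 0.43 (adjusted p = 0.233) and CEE+MPA against CEE -0.88 ± 0.43 (adjusted p = 0.660). Tibolone against control gave 0.71 ± 0.43 (adjusted p = 0.913). It gave -0.11 without the 4 arrays high in skeletal muscle markers (adjusted p = 0.969), where only replicates 1 and 4 of the tibolone group remained.

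The FOXA1 call did not hold in 16 of 23 alternatives. It ended without any 1 of the CEE+MPA arrays or of tibolone replicates 1, 2 and 3 (1.31 to 1.72, adjusted p = 0.0506 to 0.131), and the call stood without tibolone replicate 4. Tibolone replicates 2 and 3, with the highest FOXA1 signals of the table, were also arrays with high skeletal muscle markers. Without the 4 arrays high in these markers the difference was 0.96 (adjusted p = 0.561). On the remaining arrays 0 of all tested probe sets passed in this comparison. With spike-in set as a model term it was 1.67 (adjusted p = 0.0734) and within the high set 1.74 (adjusted p = 0.111); no tibolone array was in the low set.

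GATA3 read 8522, 5577, 6913 and 6897 on CEE arrays and 5035, 5960, 7287 and 8261 on CEE+MPA arrays. It read 9372, 8265, 6622 and 6950 on tibolone arrays and 5748, 5301, 6044 and 5234 on control arrays. The tibolone arrays all lay above the highest control on this probe set. The difference was 0.47 ± 0.17 for tibolone against control (1.39-fold), with an unadjusted p of 0.0150 and an adjusted p of 0.874. On the second GATA3 probe set it was 0.26 ± 0.17 (adjusted p = 0.913) and the groups overlapped.

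The claudins and EPCAM did not pass the test in any comparison. CLDN4 read 907, 1513, 1342 and 1689 on CEE arrays and 1204, 1093, 1340 and 1051 on CEE+MPA arrays. It read 1976, 1561, 1139 and 1553 on tibolone arrays and 2499, 1811, 1554 and 1374 on control arrays. The CEE+MPA arrays all lay below the lowest control, by a margin of 1340 against 1374, and the difference was -0.59 ± 0.22 (adjusted p = 0.113). It was -0.27 with the basal and myoepithelial covariate (adjusted p = 0.690).

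CLDN7 read 1401, 1782, 2432 and 2284 on CEE arrays and 1946, 2955, 2249 and 819 on CEE+MPA arrays. It read 2585, 1964, 929 and 1631 on tibolone arrays and 1761, 1400, 838 and 990 on control arrays. CEE+MPA replicate 4 lay below the lowest control while the other CEE+MPA arrays lay above them all, and the groups overlapped. CEE against control gave 0.68 ± 0.37 (adjusted p = 0.473) and CEE+MPA against control 0.59 ± 0.37 (adjusted p = 0.362). With CEE+MPA it was 0.35 without CEE+MPA replicate 2 (adjusted p = 0.651) and 0.96 without replicate 4 (adjusted p = 0.0867).

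CLDN3 lay at 1322 to 2304 on CEE arrays, 1262 to 2090 on CEE+MPA arrays, 779 to 2438 on tibolone arrays and 1223 to 1788 on control arrays. EPCAM lay at 1961 to 3548 on CEE arrays, 2067 to 2672 on CEE+MPA arrays, 963 to 3016 on tibolone arrays and 1587 to 2076 on control arrays. The groups overlapped for both genes, and the widest spread was within the tibolone group. Their differences against control reached 0.22 ± 0.28 for CLDN3 (adjusted p = 0.797) and 0.39 ± 0.28 for EPCAM (adjusted p = 0.607), both with CEE.

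**Figure D2:**
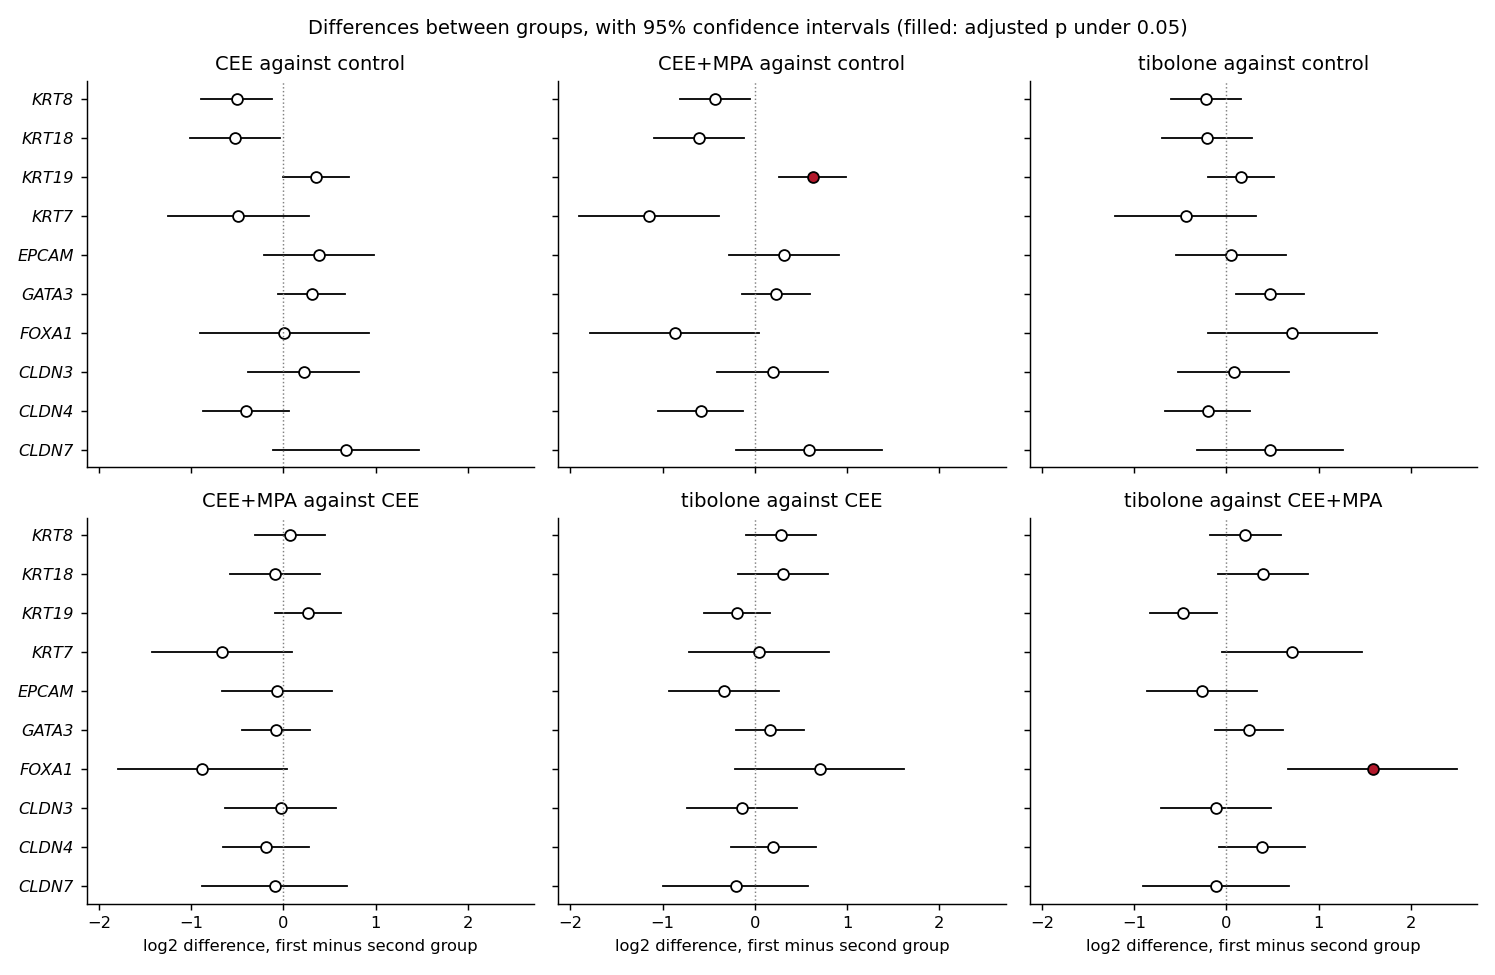
Difference on the log2(signal + 16) scale between groups for the leading probe set of each gene, with the 95% confidence interval from limma, in 6 comparisons named above the panels. Filled points mark an adjusted p under 0.05, which were KRT19 for CEE+MPA against control (0.63) and FOXA1 for tibolone against CEE+MPA (1.58).

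In the remaining comparisons 0 member probe sets were called by limma. For CEE against control 2 had an unadjusted p under 0.05, as had 12.4% of all tested probe sets, and 0.0731% of all were called. For tibolone against control 1 had an unadjusted p under 0.05, as had 5.40% of all, and 0.0244% of all were called. For CEE+MPA against CEE the unadjusted count was 0, against 7.72% of all, and 0.0209% of all were called. For tibolone against CEE it was 0, against 11.9% of all, and 0.00696% of all were called. With shares this small over the whole table, a count of 0 among 14 sets the members apart in none of these comparisons.

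Groups that did not overlap were counted over the 14 probe sets as well. For CEE against control 3 lay higher, all of KRT19, and 1 lower, of KRT18, where 8.95% of all tested probe sets did not overlap. For CEE+MPA against control 3 lay higher, again of KRT19, and 3 lower, of KRT7, KRT18 and CLDN4, where 16.1% of all did not overlap. For tibolone against control it was 1 higher, of GATA3 (3.43% of all), and for CEE+MPA against CEE 3 higher, of KRT19 (5.07% of all). For tibolone against CEE it was 0 (5.43% of all), and for tibolone against CEE+MPA 1 higher, of FOXA1, and 2 lower, of KRT19 (13.1% of all). The comparisons with control share the same 4 control arrays, so they are not independent of each other.

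Counted as genes, members fell on both sides of 0 in every comparison. With CEE, 6 of 10 had a higher mean than controls, with a median difference of 0.12 against 0.01 over all 10455 genes. With CEE+MPA, 5 of 10 were higher than controls, with a median of -0.12 against 0.01. With tibolone, 6 of 10 were higher than controls (median 0.06 against 0.01), and 6 of 10 were higher than with CEE+MPA (median 0.22 against 0.01). CEE+MPA exceeded CEE for 2 of 10 (median -0.09 against 0.00), and tibolone exceeded CEE for 6 of 10 (median 0.10 against 0.01).

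The order of the group means divided the genes. KRT8, KRT18, KRT7 and CLDN4 had their highest mean in controls and their second highest with tibolone. EPCAM, CLDN3 and CLDN7 had the order CEE, CEE+MPA, tibolone, control from high to low. KRT19 ran from CEE+MPA through CEE and tibolone to control, GATA3 from tibolone through CEE and CEE+MPA to control, and FOXA1 from tibolone through CEE and control to CEE+MPA. Neighbours in these orders did not differ by the test for any of the 10 genes, so each order is a description of the means.

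**Figure D3:**
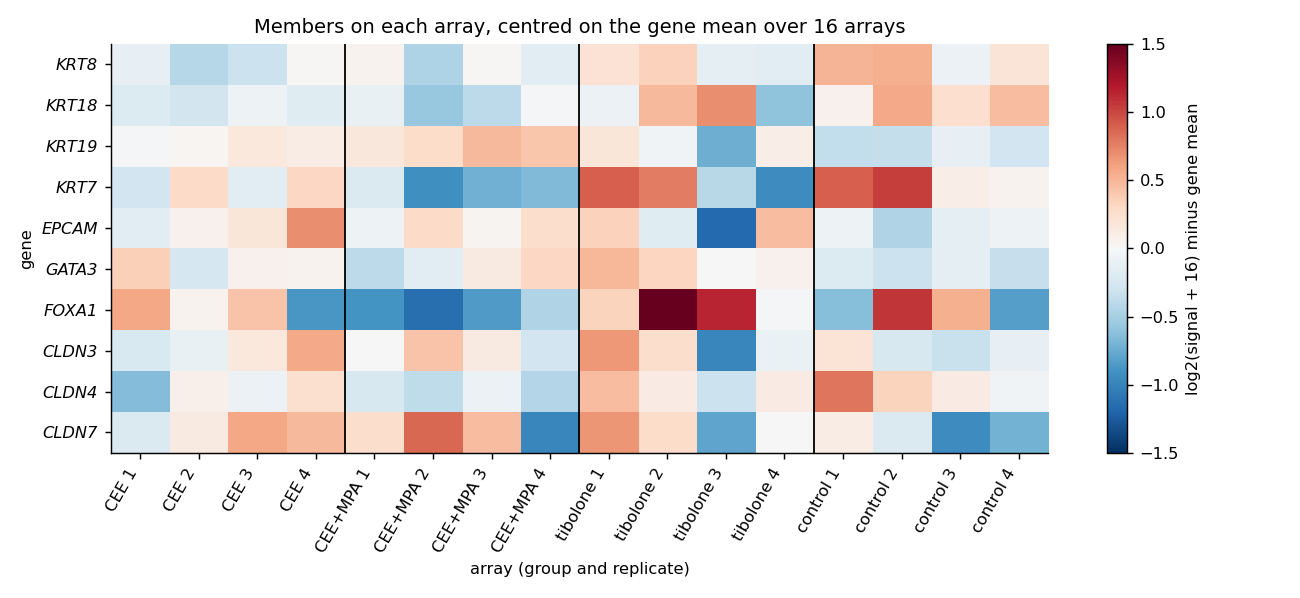
Log2(signal + 16) of each gene on each array, minus the mean of that gene over 16 arrays, with arrays grouped by treatment. Tibolone replicate 3 was low for KRT19, EPCAM, CLDN3 and CLDN7 and high for KRT18 and FOXA1, and the 4 CEE+MPA arrays were low for FOXA1 and high for KRT19.

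In the mean of the 10 members, the arrays of the tibolone group differed most among themselves. For single genes another group could spread more, as the SD of KRT8 signals was 276 in controls and 215 with tibolone. The mean of the 10 centred genes was 0.41, 0.39, -0.27 and -0.11 on tibolone arrays, with an SD of 0.35. The SD was 0.11 over CEE arrays, 0.05 over CEE+MPA arrays and 0.17 over control arrays. Tibolone replicate 3 had the lowest signal of all 16 arrays for KRT19, EPCAM and CLDN3, and the highest for KRT18. On that array the other 26 luminal genes averaged -0.68 after centring, the skeletal muscle markers 1.68, the endothelial markers 0.46, the myeloid markers 0.42 and the adipocyte markers 1.05, the highest adipocyte mean of the 16 arrays. The fibroblast markers averaged 0.30, the contractile markers 0.31 and the lymphocyte markers 0.375. Below 0 were the other tight junction genes at -0.54, the basal markers at -0.26, the skin markers at -0.11 and the hormone-sensing factors at -0.08. Control replicate 1 and tibolone replicate 2 had higher skeletal muscle means, at 2.79 and 2.52, and there the other luminal genes averaged -0.10 and -0.28. The part of these markers in the member values was not tested.

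Relations between members were examined over the 16 arrays in 45 pairs of genes, with 100000 permutations and Benjamini-Hochberg adjustment over the pairs. The permutations did not take the treatment group into account, so r is also given for deviations from the group means. The low set held 6 arrays, and no test compared r between the sets. In 8 pairs the adjusted p of Pearson's r was under 0.05, with 6 positive. The closest pair was CLDN3 and CLDN7 (r = 0.816, permutation p = 6e-05, adjusted p = 0.0027, and rho = 0.909, p = 3e-05, adjusted p = 0.00135). Without the 2 arrays farthest from the median of CLDN3 it was 0.819, for deviations from the group means 0.831, in the low spike-in set 0.807 and in the high set 0.917. KRT7 and CLDN4 gave positive r in both sets as well (r = 0.739, permutation p = 0.00087, adjusted p = 0.00783, rho = 0.794, p = 0.00042, adjusted p = 0.00945). Their r was 0.601 for deviations from the group means, 0.642 without the 2 farthest arrays, 0.812 in the low set and 0.775 in the high set.

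KRT19 correlated positively with EPCAM and negatively with KRT18, which itself correlated negatively with EPCAM. KRT19 and EPCAM gave r = 0.755 (permutation p = 0.00086, adjusted p = 0.00783) and rho = 0.676 (p = 0.00483, adjusted p = 0.0435), with 0.839 for deviations from the group means, 0.566 without the 2 farthest arrays, 0.755 in the low set and 0.786 in the high set. KRT18 and KRT19 gave r = -0.754 (permutation p = 0.00075, adjusted p = 0.00783) and rho = -0.671 (p = 0.00585, adjusted p = 0.0439), with -0.582 for deviations from the group means, -0.583 without the 2 farthest arrays, -0.570 in the low set and -0.803 in the high set. KRT18 and EPCAM gave r = -0.741 (permutation p = 0.00061, adjusted p = 0.00783) and rho = -0.700 (p = 0.00348, adjusted p = 0.0391), with -0.706 for deviations from the group means, -0.555 without the 2 farthest arrays, -0.239 in the low set and -0.810 in the high set.

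The other 3 pairs had positive r in the high set and r slightly below 0 in the low set. KRT8 and KRT7 gave r = 0.731 (permutation p = 0.0015, adjusted p = 0.00964) and rho = 0.721 (p = 0.00246, adjusted p = 0.0369), with 0.733 for deviations from the group means, 0.568 without the 2 farthest arrays, -0.166 in the low set and 0.861 in the high set. EPCAM and CLDN3 gave r = 0.761 (permutation p = 0.00119, adjusted p = 0.00892) and rho = 0.588 (p = 0.0185, adjusted p = 0.0925), with 0.754 for deviations from the group means, 0.394 without the 2 farthest arrays, -0.143 in the low set and 0.845 in the high set. KRT8 and CLDN4 gave r = 0.634 (permutation p = 0.00816, adjusted p = 0.0459) and rho = 0.638 (p = 0.00937, adjusted p = 0.0602), with 0.443 for deviations from the group means, 0.407 without the 2 farthest arrays, -0.079 in the low set and 0.808 in the high set. The partners KRT8 and KRT18 gave r = 0.552 (permutation p = 0.0276, adjusted p = 0.0954) and rho = 0.550 (p = 0.0305, adjusted p = 0.114), with 0.248 for deviations from the group means, 0.498 without the 2 farthest arrays, 0.734 in the low set and 0.544 in the high set.

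**Figure D4:**
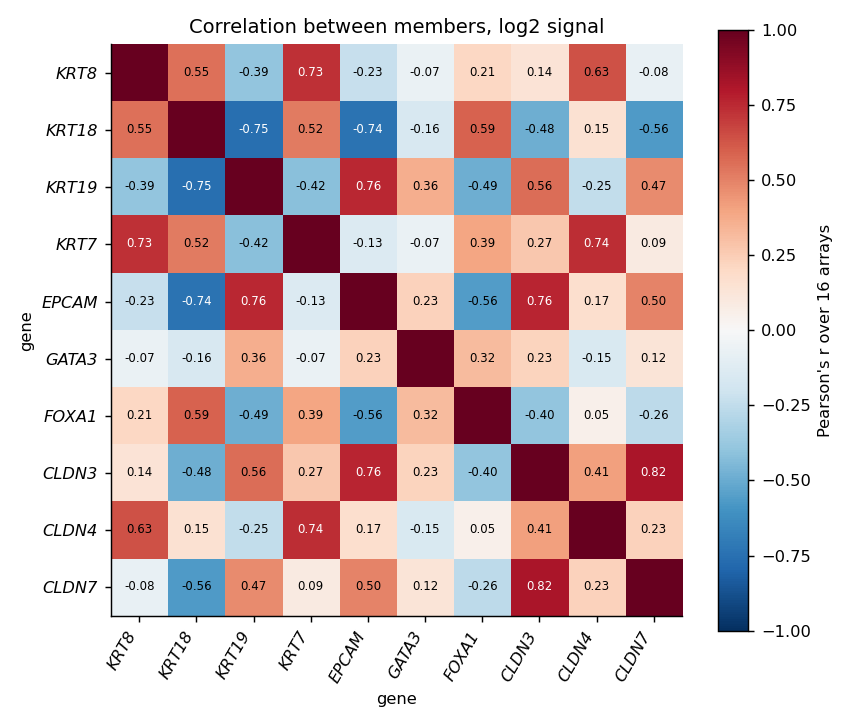
Pearson's r between the log2(signal + 16) values of each pair of genes over 16 arrays, with both axes listing the 10 genes. CLDN3 with CLDN7 was highest at 0.82, and KRT18 with KRT19 (-0.75) and KRT18 with EPCAM (-0.74) were lowest.

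The gene most like FOXA1 over the 16 arrays was TBX3, a T-box transcription factor of mammary development (r = 0.966, given as a description). DACH1 followed at 0.904 and MICAL2 at 0.890. TBX3 read 885, 2507, 1957 and 888 on tibolone arrays and 577, 434, 583 and 821 on CEE+MPA arrays, with the same tibolone arrays, replicates 2 and 3, standing highest as for FOXA1. DACH1 is a nuclear factor that represses transcription.

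For GATA3 the closest genes were OR5M1 (r = 0.762), CHFR (0.746) and CRYBA1 (0.723), of which OR5M1 and CRYBA1 had mean signals of 66.8 and 88.7, near the table median. For the mean of the 10 members the closest were PCGF2 (0.870), WWC3 (0.860), IER5L (0.855), RBFOX2 (0.842) and METRNL (0.838). All these genes were taken from 10455 for being most alike, so their r values carry no test.

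**Figure D5:**
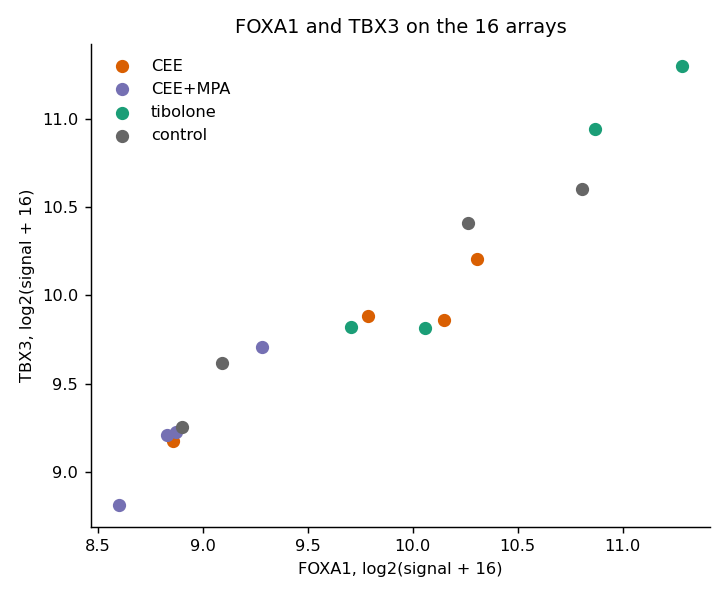
Log2(signal + 16) of TBX3 (vertical axis) against FOXA1 (horizontal axis) on the 16 arrays, coloured by group. The CEE+MPA arrays lie at the low end for FOXA1 (8.60 to 9.28) and tibolone replicates 2 and 3 at the high end (11.28 and 10.87).

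Few of the other luminal genes passed the test. Of 26 tested luminal epithelial genes outside the 10, 0 passed by limma in CEE+MPA against control, where 18 had a higher mean and the median difference was 0.32, against 286 called higher and 518 lower of 10455 genes with a median of 0.01. In tibolone against CEE+MPA 2 of the 26 were lower and 0 higher, where 416 of all genes were called higher and 352 lower. These were PRSS8 and ELF5. PRSS8, a membrane-anchored serine protease, was at 1136 ± 496 with tibolone and 2223 ± 172 with CEE+MPA (-1.06 ± 0.24, adjusted p = 0.0243). ELF5, the alveolar transcription factor, was at 6772 ± 3800 with tibolone and 14736 ± 1081 with CEE+MPA (-1.31 ± 0.33, adjusted p = 0.0352). Against control, PRSS8 was at -0.24 with tibolone and 0.82 with CEE+MPA, and ELF5 at -0.32 and 0.985. None of these differences from control passed. In tibolone against CEE+MPA neither gene passed without the 4 arrays high in skeletal muscle markers (PRSS8 -0.58, adjusted p = 0.431, and ELF5 -0.61, adjusted p = 0.517). On the remaining arrays 0 of all tested probe sets passed in this comparison, so this loss does not set the 2 genes apart.

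On the list of hormone-sensing luminal factors 18 of 22 genes were tested. Of these, 1 rose with CEE+MPA against control and 0 fell, where 286 of 10455 genes were called higher and 518 lower. It was SPDEF, an ETS factor of secretory epithelia, at 880 ± 132 with CEE+MPA and 495 ± 98.0 in controls (0.82 ± 0.23, adjusted p = 0.0495, and 0.86 without the 4 arrays high in skeletal muscle markers, adjusted p = 0.110). In tibolone against CEE+MPA 1 was higher and 0 lower, where 416 of all genes were called higher and 352 lower. It was NR2F2, a nuclear receptor, at 2063 ± 251 with tibolone and 1246 ± 182 with CEE+MPA (0.72 ± 0.20, adjusted p = 0.0430, and 0.79 without the same arrays, adjusted p = 0.386). Without those arrays 0 of all tested probe sets passed in tibolone against CEE+MPA. Against control NR2F2 was at 0.13 with tibolone and -0.60 with CEE+MPA on all arrays, and neither difference passed. NR2F2 was placed on the list by name, and the cells that gave its signal were not tested.

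In CEE+MPA against control 286 of 10455 genes were called higher and 518 lower. Of 15 tested tight junction genes outside the claudins above, of 29 listed, 1 rose there and 0 fell. It was CGNL1, a junction-associated scaffold protein, at 1485 ± 202 with CEE+MPA and 728 ± 120 in controls (1.02 ± 0.24, adjusted p = 0.0263). In tibolone against CEE+MPA 3 were lower and 0 higher, where 416 of all genes were called higher and 352 lower. CGNL1 was at 592 ± 242 with tibolone (-1.38 ± 0.24, adjusted p = 0.00997). CLDN8, a claudin with roles in ion barriers, was at 1212 ± 267 with tibolone and 3158 ± 887 with CEE+MPA (-1.36 ± 0.31, adjusted p = 0.0249). PALS1, a polarity scaffold, was at 763 ± 224 with tibolone and 1309 ± 146 with CEE+MPA (-0.80 ± 0.18, adjusted p = 0.0251). Tibolone against control gave -0.36 for CGNL1, -0.71 for CLDN8 and -0.37 for PALS1, and none passed. CEE+MPA against control gave 0.65 for CLDN8 and 0.43 for PALS1, and neither passed. CLDN3, CLDN4 and CLDN7 gave -0.11, 0.39 and -0.11 in tibolone against CEE+MPA and did not pass. Without the 4 arrays high in skeletal muscle markers they gave 0.18, 0.59 and 0.22. Over all alternatives CLDN3 ran from -0.69 to 0.20, CLDN4 from 0.10 to 0.59 and CLDN7 from -0.93 to 0.22. Without the 4 arrays high in skeletal muscle markers CGNL1 was 0.81 higher with CEE+MPA than in controls (adjusted p = 0.0914). For tibolone against CEE+MPA the values without them were CGNL1 at -1.14 (adjusted p = 0.241), CLDN8 at -1.35 (0.378) and PALS1 at -0.47 (0.503). There 0 of all tested probe sets passed in tibolone against CEE+MPA, so these losses do not set the genes apart. In the other 4 comparisons 0 genes of these 3 lists passed by limma.

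Markers of other cells moved with the CEE+MPA group, where 518 of 10455 genes fell and 286 rose against control. Of 12 smooth muscle and contractile markers 9 were tested, and 8 fell with CEE+MPA against control, with a summed signal of 13522 to 19939 with CEE+MPA and 25211 to 32302 in controls. Of 19 basal and myoepithelial markers 9 were tested and 2 fell, with a summed signal of 4604 to 5636 with CEE+MPA and 5505 to 6723 in controls. KRT5, KRT14 and KRT17 had no single-symbol probe set. Fibroblast markers fell in 5 of 12 tested genes, adipocyte markers in 4 of 12, endothelial markers in 3 of 12, myeloid markers in 1 of 11 and skin markers in 1 of 6, and no tested skeletal muscle or lymphocyte marker passed by limma in either direction. In tibolone against CEE+MPA 416 of all genes were called higher and 352 lower. Those higher held 7 of 9 contractile, 4 of 12 fibroblast, 2 of 12 adipocyte, 2 of 12 endothelial and 1 of 9 basal markers. In tibolone against control 8 of 9 contractile markers had a lower mean (median difference -0.11), and 0 were called. The contractile sum was 23721 to 33865 with tibolone and 13522 to 19939 with CEE+MPA. With the basal and myoepithelial mean as a covariate KRT19 was at 0.82 for CEE+MPA against control (adjusted p = 0.140), and FOXA1 at 1.49 for tibolone against CEE+MPA (adjusted p = 0.215). The part of these markers in the KRT19, KRT7 and FOXA1 values was not tested further.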

How the data were processed

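Per the labels' protocols, total RNA from mammary tissue was extracted with Tri-reagent and RNeasy columns, biotin labelled and hybridized to 1 array per animal. The authors deposited a linear intensity (signal) per probe set, scaled to 1 trimmed mean (2% at each end). The submitters' processing notes name GCOS and Affymetrix Expression Console; the genome build is not given in the sources used here, nor are the algorithm and its background step. Precision is limited by the number of arrays. The limma p-values weigh a difference of group means against the spread between animals within groups. This spread is pooled over all groups and adjusted by that of the other probe sets.

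Control probe sets (99) were left out. Signals were transformed as log2(signal + 16), which understates fold changes of low signals. Probe sets above 60.2 on at least 4 arrays were tested (28716). 1 limma model of 4 group means was fitted over 16 arrays, 6 comparisons were adjusted by Benjamini-Hochberg within each over all tested probe sets, and the threshold was 0.05. Errors of log2 differences are standard errors, and errors of signals are SD. Annotation gave 1 symbol to 24969 probe sets, several to 361 and none to 27535. All 10 members were named, genes of the 3 pathway lists where past the threshold (up to 4 by smallest p), and the genes most alike by Pearson's r (5 for the mean, 3 for FOXA1 and 3 for GATA3). The members, lists and tests were chosen with earlier results of these data known. Replicate numbers follow the order of the deposited arrays. The fit and the permutation test were tested on simulated data. Alternatives were other normalizations, filters, offsets, priors, weights, covariates, array sets and leaving out each array. Tools were limma 3.58.1 in R 4.3.3, and matplotlib 3.10.9 in Python 3.11.15.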

Additional observations from a re-analysis of the deposited data

Results flagged for a closer look

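In 56 sets of 4 arrays (14 probe sets in 4 groups), the gap between the lowest or highest array and its nearest neighbour was compared with the range of the group. Chance alone puts about 1 in 20 groups past the 95% critical value of Dixon's ratio, and 2 of 56 passed it. Both were tibolone replicate 3 on KRT19. On its second probe set this array read 6204, against 12307 to 13213 on the other tibolone arrays, a gap of 0.906 of the range. On the third it read 5412, against 12114 to 12677, a gap of 0.947 of the range. The 2 probe sets measure the same transcript and are not independent.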

How the results depend on the processing

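The number of member probe sets called in CEE+MPA against control, 3, was 0 after quantile normalization, with no filter on low signal, with the basal and myoepithelial covariate and within either spike-in set, and 1 with 1 probe set per gene. It was 0 to 1 when each array was left out in turn. In tibolone against CEE+MPA, the count of 1 was 0 after quantile normalization, with no filter, in a model of only these groups, with the skeletal muscle or the basal covariate, on arrays low in skeletal muscle markers, with spike-in set as a model term and within the high set. It was 2 after median centring, both lower and without FOXA1 (1.48, adjusted p = 0.0520), 3 at a threshold of 0.10 and 0 to 4 when each array was left out. In the other 4 comparisons it was 0 in all alternatives. Of 22 member differences told one by one 3 reversed: FOXA1 in tibolone against control was -0.11 on arrays low in skeletal muscle markers, and CLDN3 and CLDN7 in tibolone against CEE+MPA were 0.18 and 0.22 on those arrays, 0.01 and 0.12 without CEE+MPA replicate 2, and 0.20 and 0.16 without tibolone replicate 3 (-0.34 to 0.20 and -0.49 to 0.16 with each array left out). Of 8 calls among the listed genes 0 reversed. All 8 ended on arrays low in skeletal muscle markers, where 0 of all probe sets passed in tibolone against CEE+MPA. Of all 60 member differences 25 had the opposite sign under at least 1 alternative. Over all probe sets, 1819 calls in CEE+MPA against control became 984 with no filter, 3729 with array weights, 3714 at a threshold of 0.10, 1141 with 1 probe set per gene, 980 on arrays low in skeletal muscle markers, 6 with the basal covariate, 0 within the low set and 348 to 1981 with an array left out. In tibolone against CEE+MPA 1820 became 799 with no filter, 215 in a model of these groups, 3750 at 0.10, 981 with 1 probe set per gene, 726 with the muscle covariate, 11 with the basal covariate, 0 on arrays low in skeletal muscle markers, 735 with the spike-in term, 564 within the high set and 209 to 3333 with an array left out. The causes were not tested. No paired analysis was possible because no animal entered more than 1 group.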
